A study of Mus musculus with 10 samples.

Results

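The genes described here are the 36 mouse aminoacyl-tRNA synthetase genes, 20 for the cytosolic enzymes and 16 for the mitochondrial enzymes, among 47719 genes measured. They were chosen by name: the Ensembl identifier of each measured gene was matched to the gene symbols of GENCODE M21 on GRCm38, and all 36 listed symbols were found. The rule uses gene names and no measured value, although the group was proposed with results of these data known. The methionyl enzyme is Mars in M21 and is written Mars1 below.

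The study sequenced RNA from plasma cells, the antibody-secreting cells of the B lineage, that carried either IgM or IgG1. Donor B cells of both groups carried the germline-configured B1-8 heavy chain (B1-8germ), a tamoxifen-inducible Cre under S1PR2 control (S1PR2-CreERT2) and the Ai14 allele, which gives red tdTomato fluorescence after Cre has acted. They were transferred into wild-type mice, which were immunized with NP-CGG in alum and given tamoxifen on days 5 and 6. On day 10, tdTomato+ donor plasma cells were sorted from spleen into an IgM and an IgG1 group, with 5 libraries in each. Both groups therefore share the B1-8germ allele, the other transgenes, the immunization and the tamoxifen. They differ in the antibody class, and so in the class of the heavy chain, on which the cells were sorted. Only cells that had S1PR2-driven Cre active at the time of tamoxifen are labelled, so the libraries cover that labelled fraction. Whether each library stands for its own mouse is not in the labels; the p-values below thus rest on the variation among 5 samples a group, and part or all of that variation could be technical.

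Aminoacyl-tRNA synthetases attach each amino acid to its own transfer RNA (tRNA), the step that supplies the ribosome with charged tRNA. The cytosolic and the mitochondrial compartment each need charged tRNA. Most amino acids have 2 nuclear genes, the mitochondrial one usually carrying a 2 in its name. The glycyl and lysyl enzymes of both compartments come from Gars and Kars, and the 16 mitochondrial genes include no glutaminyl enzyme. The enzymes fall into class I and class II by the fold of their catalytic domain, and several cytosolic ones assemble with scaffold proteins into a multi-synthetase complex. Plasma cells export large amounts of antibody and have a high demand for charged tRNA. Many cytosolic synthetase genes are known targets of ATF4, the transcription factor of the amino acid and unfolded-protein stress responses, which binds C/EBP-ATF response elements together with C/EBP partners.

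Response elements of that kind could be looked for in the promoter windows of RefSeq (GRCm38.p6; 250 bases before to 50 after the annotated start, 300 in all). The motif searched was TGATGNAA, on both strands, where the other strand reads TTNCATCA. A window was found for 13 of the 20 cytosolic genes, and 5 of these windows held the motif. A window was found for 14 of the 16 mitochondrial genes, and 0 held it. Over all 32851 windows, 1304 (3.97%) held it. The 5 genes with a match were Aars, Gars, Iars, Tars and Yars, the cytosolic alanyl, glycyl, isoleucyl, threonyl and tyrosyl enzymes; they are shown because they are the members with this sequence, and Aars, Gars and Yars are among the members with the largest differences below. Each line gives 30 bases, 5′ to 3′ on the strand of the gene, with the motif in capitals; a match is a description of the sequence, not a binding site.
Aars, chr8:111033840-111033869, plus strand, motif starting 9 bases after the start: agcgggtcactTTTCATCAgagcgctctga
Gars, chr6:55037960-55037989, plus strand, motif starting 30 bases before the start: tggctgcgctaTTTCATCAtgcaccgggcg
Iars, chr13:49682126-49682155, plus strand, motif starting 7 bases after the start: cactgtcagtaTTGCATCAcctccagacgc
Tars, chr15:11399655-11399684, minus strand, motif starting 15 bases before the start: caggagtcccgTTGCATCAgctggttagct
Yars, chr4:129189895-129189924, plus strand, motif starting 3 bases after the start: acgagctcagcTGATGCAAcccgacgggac
The Yars element was read on the gene's own strand while the others shown lay on the opposite strand. In the comparison below, in which 13 of the 20 cytosolic genes rose, 4 of the 5 genes with a match rose and Tars did not pass the test. The calls of Iars and Tars changed with the processing. Of the cytosolic genes with a window but no match, Dars, Farsa, Farsb, Kars, Mars1 and Sars rose, Eprs did not pass and Qars fell. Most genes thus rose with and without a match, and a link between motif and difference was not tested.

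Expression is given in FPKM, fragments scaled to transcript length and to the number of mapped fragments, which is a level per transcript length. The depth was estimated as the one at which low values fell on whole numbers of fragments. It was 27500000 to 32030000 fragments in the IgM libraries and 27090000 to 39410000 in the IgG1 libraries. So 1 FPKM stands for 27.1 to 39.4 fragments per 1 kb of effective length, the transcript length less about 1 fragment length. The 6 plasma cell genes fixed as markers (Sdc1, Prdm1, Xbp1, Jchain, Irf4, Tnfrsf17) were all detected, and their sum, mostly Jchain, was 39720.4 to 43929 FPKM in IgM and 23219.8 to 26671 in IgG1 libraries. Without overlap, Jchain (36165 to 40282 against 19438 to 23043 FPKM), Tnfrsf17 (121 to 146 against 42.2 to 51.8) and Prdm1 (48.7 to 55.3 against 24.8 to 32.2) were lower in IgG1 libraries, while Sdc1, Xbp1 and Irf4 overlapped between groups. The B cell marker Ms4a1 was present and higher in the IgM group, at 53.7 to 76.4 FPKM in IgM and 35.4 to 51.2 in IgG1 libraries. Among the other B cell markers, Pax5, Fcer2a and Cr2 reached at most 0.335, 2.49 and 2.39 FPKM in any library and overlapped between groups. The sum of 5 macrophage markers was also higher there, 30.9 to 36.7 against 12.4 to 19.4 FPKM, through Cd68, which was at least 28.7 in IgM and at most 15.0 in IgG1 libraries. Itgam went the other way without overlap (0.419 to 0.765 against 0.818 to 2.55), and Lyz2, Csf1r and Adgre1 overlapped. T cell, neutrophil and erythroid markers summed to less than 5 FPKM in every library and 3 of 4 NK cell markers were at 0 throughout. The IgM libraries had more genes above 0, 15487 ± 312 (SD, n = 5) against 13564 ± 266 (SD, n = 5), with no overlap. The part of these marker and detection differences in the results below was not tested, and in sorted bulk samples fewer cells of a type and less RNA per cell cannot be told apart.

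Cytosolic synthetase transcripts were mostly more abundant in IgG1 than in IgM plasma cells, by moderate amounts, while few of the mitochondrial enzymes differed past the test. Of the 20 cytosolic genes, 13 rose in IgG1, 1 (Qars, the glutaminyl enzyme) fell and 6 did not pass. Of the 15 mitochondrial genes whose mean reached 1 FPKM, 2 rose (Aars2, alanyl, and Lars2, leucyl), 0 fell and 13 did not pass; Mars2 was below that level and was not tested. A gene was called when its adjusted p was below 0.05 in limma on log2(FPKM + 1), with Benjamini-Hochberg adjustment over 9900 tested genes. At an unadjusted p below 0.05 in limma, 2 mitochondrial genes, Hars2 and Nars2, were lower. Every difference below is the IgG1 mean less the IgM mean on this log scale, and changes of low genes are understated by the added 1.

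The background to these counts is high. Over all 9900 tested genes, 38.3% were called, 18.1% higher and 20.2% lower. The cytosolic synthetases all have a mean above 20 FPKM, and among the 3448 tested genes whose mean reached 20 FPKM 36.6% rose and 20.7% fell; among the 6452 below 20 FPKM, 8.2% rose and 19.9% fell. The cytosolic count, 65% higher, lay above both shares, and the mitochondrial count, 13.3% higher, lay between the share of low genes and that of all genes. In 12 of the 20 cytosolic genes, and in 0 of the 15 mitochondrial ones, every IgG1 library lay above every IgM library, which held for 13.1% of all tested genes. The 13.3% of tested genes with every IgG1 value below every IgM value included no synthetase.

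The median difference was 0.28 over the cytosolic genes (range −0.50 to 0.58), 0.10 over the mitochondrial genes (−0.59 to 0.64) and −0.05 over all tested genes. The median standard error was 0.08 for the cytosolic and 0.19 for the mitochondrial genes, so the smaller count in the second group was also measured with less precision. The distance between the medians depended on the scaling. With quantile normalization the medians were 0.26 and 0.24, the median of all genes moved from −0.05 to 0.06, and the split over all tested genes went from 1791 higher and 2001 lower to 2182 higher and 1510 lower. Relative to all genes the cytosolic and mitochondrial medians were then 0.19 and 0.18, against 0.33 and 0.15 as deposited. Whether the 2 compartments differ from each other was therefore not established, since members are not replicates and no test of the difference over genes was made.

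**Figure D1:**
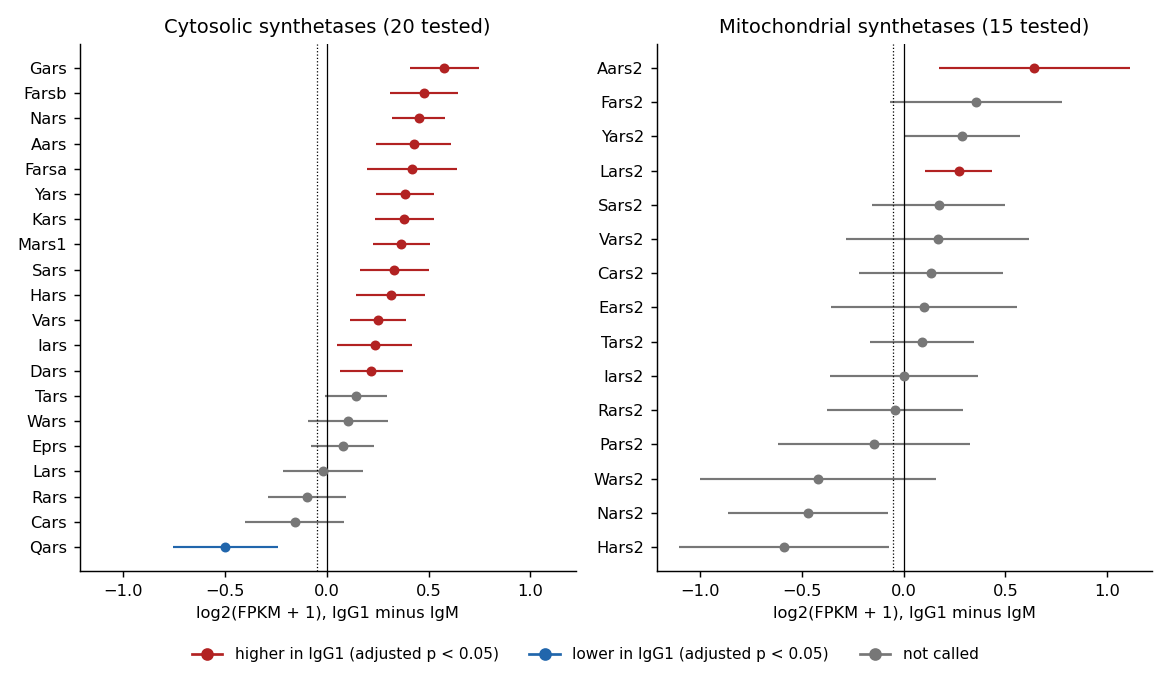
Difference of each tested synthetase, IgG1 minus IgM on the log2(FPKM + 1) scale, with its 95% interval from limma (5 libraries a group); the dotted line is the median of all tested genes, −0.05. In the cytosolic panel 13 genes are called higher and Qars is called lower; in the mitochondrial panel Aars2 and Lars2 are called higher and most intervals are wider.

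Summed over the 20 cytosolic genes, the libraries held 1222, 1226, 1153, 1249.6 and 1211 FPKM in IgM and 1458, 1486, 1417, 1461 and 1475 FPKM in IgG1. The groups did not overlap, with means of 1212 ± 35.9 and 1459 ± 26.3 (SD, n = 5 each). Without Lars2, the mitochondrial genes summed to 121 to 142 FPKM in IgM and 129 to 147 in IgG1, with means of 131 ± 7.81 and 138 ± 7.42 (SD, n = 5 each), and these overlapped. The cytosolic sum was thus 8.13 to 10.3 times the mitochondrial sum without Lars2 in IgM libraries and 9.96 to 11.1 times in IgG1 libraries, ranges that also overlapped.

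The class II enzymes hold most of the cytosolic genes that rose. Eprs, which carries a class I glutamyl and a class II prolyl enzyme in 1 protein, was counted with class I and was not called. All 10 cytosolic class II genes had a positive difference, 9 of them were called higher, and their median was 0.40; Tars was the one of these 10 not called. Of the 10 cytosolic class I genes, 4 were called higher (Mars1, Yars, Vars, Iars), 1 was called lower (Qars) and 5 did not pass, with a median of 0.09. In the mitochondria the 8 tested class I and the 7 class II genes had medians of 0.12 and 0.09, with 1 gene called in each. Of the cytosolic class II genes 90% rose, and of the class I genes 40%. Among all tested genes whose mean reached 20 FPKM 36.6% rose, so the class I count was near that share. The mitochondrial shares were 12.5% for class I and 14.3% for class II, beside 18.1% of all tested genes. The classes were compared by counts alone, with no test between them.

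Gars, which charges glycine in both compartments, had the largest difference of the cytosolic genes. It lies on chromosome 6, 55038007 to 55079500 (GRCm38, plus strand). Its levels were 57.7, 63.6, 58.6, 57.3 and 59.7 FPKM in the IgM libraries and 74.2, 91.3, 88.7, 92.9 and 100.1 FPKM in the IgG1 libraries. All IgG1 libraries lay above all IgM libraries, with the first IgG1 library the closest. The mean went from 59.4 ± 2.53 to 89.4 ± 9.53 (SD, n = 5), 50.6% higher, a difference of 0.58 ± 0.08 (SE; adjusted p = 1.66e-05, limma). Its promoter element is printed above.

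Phenylalanyl-tRNA synthetase is a tetramer of alpha and beta chains, and the genes of both chains rose. Farsb, the beta chain (chromosome 1, 78417975 to 78488897, minus strand), had 45.2, 44.6, 51.6, 49.4 and 48.4 FPKM in IgM and 64.3, 61.7, 67.6, 75.1 and 66.6 FPKM in IgG1 libraries. Farsa, the alpha chain (chromosome 8, 84856989 to 84869257, plus strand), had 30.5, 26.6, 31.8, 28.1 and 30.0 FPKM in IgM and 39.8, 36.9, 32.3, 44.7 and 45.6 FPKM in IgG1 libraries. Neither gene overlapped between groups, although the third IgG1 library came within 1 FPKM of the highest IgM library for Farsa. Farsb was 40.1% higher (0.48 ± 0.08 SE, adjusted p = 0.000101, limma) and Farsa 35.5% higher (0.42 ± 0.10 SE, adjusted p = 0.00424). The call of Farsa rested on the fourth and the fifth IgG1 libraries: without both of them its adjusted p was 0.0569. Of the 50-base stretches of the Farsb transcript 10.1% also occur in a transcript of Sgpp2, which was at 1.33 to 2.85 FPKM in IgM and 3.94 to 6.09 in IgG1, so a small part of the Farsb level is uncertain.

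Nars, the asparaginyl enzyme, was the most abundant cytosolic synthetase in both groups (chromosome 18, 64499647 to 64516652, minus strand). It stood at 146, 141, 121, 149 and 139.9 FPKM in IgM and 196, 199, 189.5, 189 and 179.9 FPKM in IgG1 libraries. All IgG1 libraries were higher by a clear margin, and the mean went from 139 ± 10.8 to 191 ± 7.27 (SD, n = 5). The difference was 0.45 ± 0.06 (SE; adjusted p = 1.55e-05, limma), or 36.7% higher.

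Aars, the alanyl enzyme, had the lowest mean of the cytosolic synthetases in IgM cells (chromosome 8, 111033144 to 111057664, plus strand). Its levels were 28.8, 26.9, 30.6, 28.0 and 26.1 FPKM in IgM and 40.1, 39.0, 37.7, 37.7 and 35.7 FPKM in IgG1. The groups were tight and separate, with a difference of 0.43 ± 0.09 (SE; adjusted p = 0.000864, limma) and a mean 35.5% higher. Of the 50-base stretches of its transcript 22.4% also occur in a transcript of Exosc6, which the annotation places inside Aars on the same strand and which was not analysed here, so the level of Aars is uncertain to that extent.

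Aars2, the mitochondrial partner of Aars, also rose, and alanine is the one amino acid for which the genes of both compartments were called. Aars2 lies on chromosome 17, 45506841 to 45520843, on the plus strand. It is expressed at a low level: 0.705, 1.04, 1.22, 1.72 and 2.18 FPKM in IgM and 3.04, 3.23, 2.07, 2.52 and 2.36 FPKM in IgG1 libraries. The third IgG1 library lay below the fifth IgM library and the other 4 lay above all IgM libraries. The mean went from 1.37 ± 0.582 to 2.64 ± 0.483 (SD, n = 5), a ratio of 1.92, and the difference was 0.64 ± 0.22 (SE; adjusted p = 0.0302, limma). This call did not hold in several alternatives, with an adjusted p between 0.0512 and 0.0793 when any of IgM libraries 1, 2 and 3 or IgG1 libraries 1 and 2 was left out. It was also lost without the filter on low values, with the replicate block, with length and GC trends removed and without the fourth and the fifth IgG1 library, up to an adjusted p of 0.182.

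Yars and Kars, the tyrosyl and lysyl enzymes, rose by similar amounts. Yars (chromosome 4, 129189760 to 129219607, plus strand) had 83.4, 74.6, 71.7, 71.7 and 77.9 FPKM in IgM and 108, 94.3, 94.7, 98.2 and 101 FPKM in IgG1 libraries. Kars, which serves both compartments and belongs to the multi-synthetase complex (chromosome 8, 111993443 to 112011323, minus strand), had 66.3, 74.3, 66.8, 74.9 and 70.6 FPKM in IgM and 97.3, 93.3, 85.2, 88.6 and 96.5 FPKM in IgG1 libraries. All IgG1 libraries exceeded all IgM libraries for both genes. The differences were 0.38 ± 0.07 for Yars (SE; adjusted p = 0.000232, limma) and 0.38 ± 0.07 for Kars (adjusted p = 0.000260), 30.9% and 30.6% higher.

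Qars, the glutaminyl enzyme, went the other way (chromosome 9, 108507706 to 108515941, plus strand). Its levels were 68.8, 54.7, 38.8, 57.9 and 55.2 FPKM in IgM and 39.0, 44.0, 33.1, 37.0 and 37.9 FPKM in IgG1 libraries. The third IgM library was as low as the IgG1 libraries, so the groups overlapped, and 3 IgG1 libraries lay below the lowest IgM library. The mean fell from 55.1 ± 10.7 to 38.2 ± 3.92 (SD, n = 5), a difference of −0.50 ± 0.12 (SE; adjusted p = 0.00356, limma). Qars kept its call in all 23 alternatives tried. It was the lowered member of the 8 complex synthetases, whose median difference was 0.15. Of these 8, Kars, Mars1, Dars and Iars rose (50%) and Eprs, Lars and Rars did not pass. Of the 12 cytosolic genes outside the complex 9 rose (75%), with a median of 0.36. Among all tested genes whose mean reached 20 FPKM 36.6% rose, and no test between the sets was made.

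Lars2, the mitochondrial leucyl enzyme, is listed as by far the most abundant mitochondrial member (chromosome 9, 123366927 to 123462666, plus strand). It had 216, 231, 258, 247 and 243 FPKM in IgM and 333, 257, 283, 327 and 251 FPKM in IgG1 libraries. Of the IgG1 libraries, 3 lay above all IgM libraries and the other 2 fell within the IgM range. The difference was 0.27 ± 0.08 (SE; adjusted p = 0.0108, limma), 21.4% higher. A stretch of 72 bases near the end of the Lars2 transcript is 98.6% identical to Gm15564, itself at 12.4 to 26.6 FPKM in IgM and 20.8 to 34.5 in IgG1 libraries. Within IgG1, both genes were highest in the first and the fourth library, with Gm15564 at 34.5 and 31.0 FPKM there. Within IgM, both were lowest in the first and highest in the third library, with Gm15564 at 12.4 and 26.6 FPKM. The order of the remaining libraries differed between the genes. The stretch is short, with 0.0780% of the 50-base windows of Lars2 shared exactly, and how many of the reads of Lars2 came from it was not tested. The call of Lars2 ended without the filter on low values and without the trend and robust options of limma (adjusted p 0.0638 to 0.0929).

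**Figure D2:**
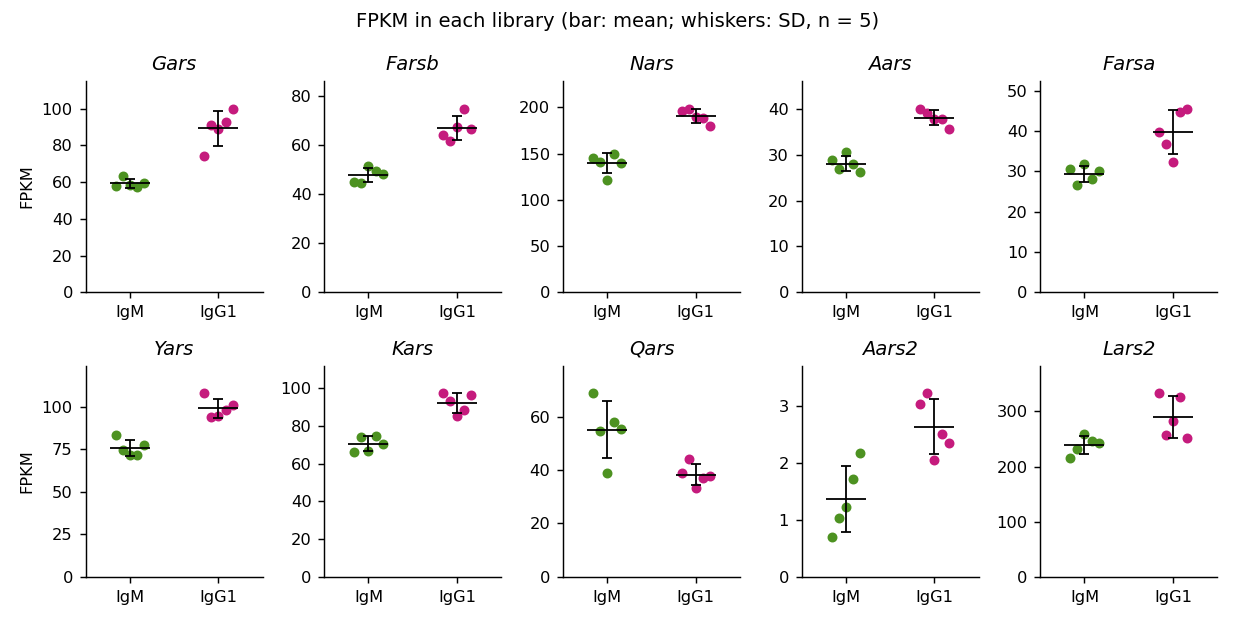
FPKM of the 10 synthetase genes described library by library (green, IgM; pink, IgG1; horizontal bar, mean; whiskers, SD of 5 libraries; each vertical axis starts at 0). Gars, Farsb, Nars, Aars, Farsa, Yars and Kars separate the groups, and Qars, Aars2 and Lars2 overlap between them.

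The other 6 cytosolic genes that rose did so by less. Mars1, the methionyl enzyme, went from 73.3 ± 4.28 to 94.7 ± 4.51 FPKM (0.37 ± 0.07 SE, adjusted p = 0.000299, limma), and Sars, the seryl enzyme, from 61.5 ± 4.53 to 77.7 ± 7.44 (0.33 ± 0.08, adjusted p = 0.00341). Hars, the histidyl enzyme, went from 56.2 ± 2.25 to 70.4 ± 7.60 FPKM (0.31 ± 0.08, adjusted p = 0.00501) and Vars, the valyl enzyme, from 113 ± 9.38 to 135 ± 5.15 (0.25 ± 0.07, adjusted p = 0.00574). These 4 genes did not overlap between groups. Iars, the isoleucyl enzyme, was 18.4% higher without overlap (adjusted p = 0.0413) and Dars, the aspartyl enzyme, 16.7% higher with 4 of 5 IgG1 libraries above all IgM libraries (adjusted p = 0.0271).

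Several of these calls rest on the setting or on single libraries. With trends on gene length and GC content removed, the difference of Vars was 0.055 (adjusted p 0.53 to 0.542 with and without the replicate block). Hars lost its call there and without the fourth and the fifth IgG1 library (adjusted p 0.057 to 0.111). Dars lost its call when any of IgM libraries 2, 3 and 4 or IgG1 libraries 2, 4 and 5 was left out (adjusted p 0.0518 to 0.0745), and Iars when any of IgM libraries 1, 2, 4 and 5 or IgG1 libraries 1, 2 and 5 was (0.0549 to 0.0962). Both also lost it without the filter on low values and without the fourth and the fifth IgG1 library together, Dars with quantile normalization and without the trend and robust options, and Iars without immunoglobulin genes in the total and with the replicate block (up to 0.163 for Dars and 0.114 for Iars). Hars lies head to head with its mitochondrial counterpart Hars2 on the other strand, and 7.53% of the 50-base stretches of Hars and 4.44% of those of Hars2 occur in transcripts of the other, so reads near the shared start cannot be assigned. Of Iars, 8.61% of such stretches are shared with the pseudogene Gm4849, listed at no more than 0.194 FPKM.

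The 6 cytosolic genes that did not pass were Cars, Eprs, Lars, Rars, Tars and Wars, for cysteine, glutamate with proline, leucine, arginine, threonine and tryptophan. Their differences ran from −0.16 for Cars (95% interval −0.40 to 0.08) to 0.14 for Tars (−0.01 to 0.29). Eprs had 54.0 ± 3.18 and 57.0 ± 2.26 FPKM, and Lars 40.6 ± 4.52 and 40.0 ± 2.64, where the means of Lars lay within 1 SD of each other. The 95% interval of Lars ran from −0.22 to 0.18 and that of Eprs from −0.08 to 0.23, so changes of that size are not excluded for them. Rars had 47.8 ± 1.04 FPKM in IgM and 44.8 ± 5.76 in IgG1, with a wider spread among the IgG1 libraries. With length and GC trends removed Eprs (0.27, adjusted p = 0.00542) and Tars (0.215, adjusted p = 0.0228) passed the test.

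The mitochondrial genes apart from Lars2 were low, with group means from 0.960 FPKM (Mars2) to 23.5 (Rars2) in IgM and from 0.571 (Mars2) to 23.4 (Rars2) in IgG1. Their median level was 8.70 and 6.47 FPKM, against 55.7 and 68.7 for the cytosolic genes. At such levels the spread between libraries was large relative to the mean. Of the 13 that did not pass, 8 had a positive and 5 a negative difference.

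Fars2 and Yars2, the mitochondrial phenylalanyl and tyrosyl enzymes, had the largest positive differences among them. Fars2 had 12.5 ± 1.62 and 17.0 ± 5.73 FPKM (0.35, 95% interval −0.07 to 0.78, adjusted p = 0.177) and Yars2 14.1 ± 1.63 and 17.5 ± 3.01 (0.29, 0.00 to 0.57, adjusted p = 0.107). Fars2 passed when the second IgG1 library was left out (adjusted p = 0.00877), and Yars2 with quantile normalization (0.0355).

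Hars2 and Nars2, the histidyl and asparaginyl enzymes of mitochondria, had the largest negative differences on the log2(FPKM + 1) scale; by the ratio of the means, IgG1 over IgM, Wars2 was lower (0.525) than Hars2 (0.633) and Nars2 (0.673). Hars2 had 9.89, 7.86, 16.7, 6.69 and 9.97 FPKM in IgM and 8.44, 5.97, 8.78, 3.19 and 5.98 FPKM in IgG1 libraries, a difference of −0.59 (interval −1.10 to −0.07, adjusted p = 0.0686). Nars2 had 10.7, 8.65, 5.34, 6.52 and 7.00 FPKM in IgM and 5.23, 4.97, 6.57, 4.65 and 4.33 FPKM in IgG1 libraries, a difference of −0.47 (−0.86 to −0.08, adjusted p = 0.0545). Both overlapped between groups, through the third IgM library and the third IgG1 library for Nars2. Their cytosolic partners Hars and Nars had differences of 0.31 and 0.45 and both were called higher. The mitochondrial calls were close to the threshold: Hars2 passed in 5 alternatives with an adjusted p of 0.0146 to 0.0486, among them leaving out IgM library 4 or IgG1 library 1 or 3, and Nars2 in 5 with 0.0236 to 0.0498, among them leaving out the third IgM or the third IgG1 library.

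The remaining mitochondrial genes gave differences between −0.42 and 0.17. Wars2, the tryptophanyl enzyme, was at the low end with 1.40 ± 0.856 and 0.733 ± 0.310 FPKM (−0.42, upper bound of the interval 0.16, adjusted p = 0.243). Cars2, Ears2, Sars2, Tars2 and Vars2 lay between 0.09 and 0.17, Iars2 at 0.00 and Rars2 at −0.04. Pars2 was at −0.15 with 3.63 ± 0.709 and 3.29 ± 1.29 FPKM. Of the Iars2 transcript, 36.6% of the 50-base stretches are shared with Rab3gap2, so its level is uncertain, and 6.30% of those of Nars2 are shared with C230038L03Rik, listed at no more than 0.438 FPKM. Mars2, not tested, had 0.960 ± 0.299 FPKM in IgM and 0.571 ± 0.202 in IgG1.

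**Figure D3:**
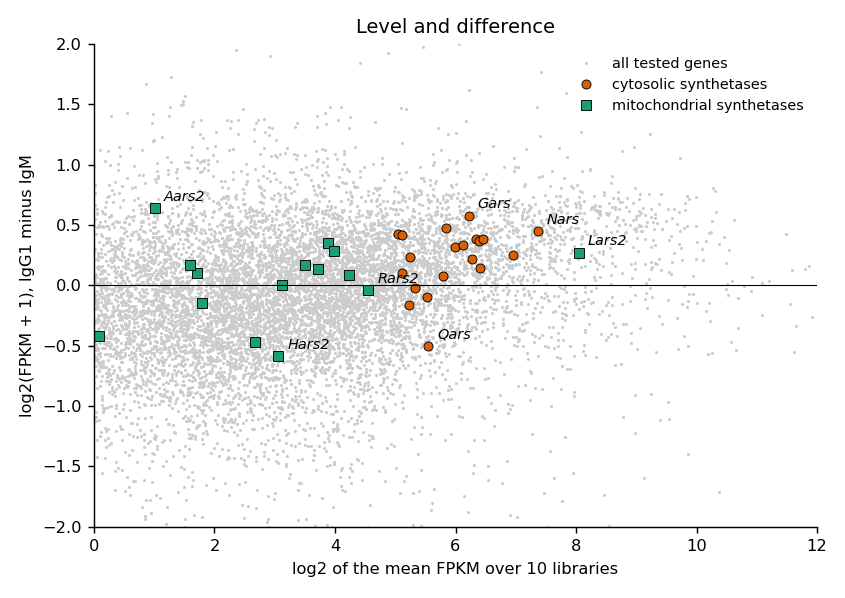
Each tested gene by its mean level over 10 libraries (log2 FPKM) and its difference, IgG1 minus IgM on the log2(FPKM + 1) scale; grey points are all genes, circles cytosolic and squares mitochondrial synthetases, and 152 of 9900 genes lie outside the axes. The cytosolic genes sit at levels where 36.6% of all genes were called higher, and the mitochondrial genes other than Lars2 and Rars2 at levels where 8.2% were.

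The partners of the synthetases are abundant genes too, at levels where 36.6% of all tested genes rose, and 13.1% of all tested genes had every IgG1 value above every IgM value. The 3 scaffold proteins of the multi-synthetase complex all rose without overlap between groups: Aimp2 from 36.1 ± 4.95 to 66.4 ± 4.79 FPKM (0.87 ± 0.10 SE, adjusted p = 1.40e-06, limma), Eef1e1 from 33.1 ± 3.19 to 50.6 ± 5.47 (0.60, adjusted p = 8.33e-05) and Aimp1 from 39.5 ± 3.08 to 49.4 ± 4.93 (0.32, adjusted p = 0.0107). Elongation factor 1, which takes charged tRNA to the ribosome, also rose in all 4 subunits, again without overlap. Eef1g had the largest difference, from 175 ± 8.30 to 288 ± 12.2 FPKM (0.72 ± 0.05 SE, adjusted p = 1.14e-08), and the subunit that binds the tRNA, Eef1a1, went from 1019.9 ± 35.5 to 1183 ± 40.8 (0.21, adjusted p = 0.000245). Eef1d went from 177 ± 5.14 to 249.9 ± 14.0 FPKM and Eef1b2 from 182 ± 4.88 to 242 ± 15.7.

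Of 30 listed genes of the ATF4 and amino acid response 22 were tested, 9 rose, 5 fell and 8 did not pass, with a median of 0.21. Over all tested genes 18.1% rose and 20.2% fell, so the count that fell was near the background. The share that rose, 40.9%, was above 18.1% but near the 36.6% of tested genes whose mean reached 20 FPKM. The list holds genes above and below that level, and below it 8.2% of tested genes rose. Phgdh and Psph of serine synthesis rose from 156 ± 10.1 to 273 ± 10.9 FPKM (0.81 ± 0.06 SE, adjusted p = 7.91e-09, limma) and from 24.4 ± 1.98 to 42.3 ± 2.61 (0.77, adjusted p = 3.67e-06). Shmt2, which passes serine carbon into the mitochondrial folate cycle, rose from 52.3 ± 2.31 to 102 ± 9.13 (0.94, adjusted p = 2.57e-08). Slc3a2, the heavy chain shared by several amino acid transporters, fell from 182 ± 14.1 to 102 ± 11.2 (−0.83, adjusted p = 1.96e-07).

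A further 3 genes of that list are named although their values were seen first. Atf4 itself did not pass, at 57.0 ± 3.33 and 51.6 ± 4.89 FPKM (−0.14, interval −0.32 to 0.03, adjusted p = 0.186), though its activity is mainly set by translation, which RNA levels do not show. Its stress target Ddit3 fell from 13.6 ± 3.79 to 6.83 ± 2.87 FPKM (−0.94, adjusted p = 0.00324), and Asns, asparagine synthetase, rose from 33.2 ± 2.62 to 39.8 ± 4.47 (0.25, adjusted p = 0.0497). Besides Asns and the 3 of serine and folate metabolism, the genes that rose were Psat1, Mthfd2, Aldh18a1, Slc7a1 and Slc7a5; besides Slc3a2 and Ddit3, those that fell were Slc1a5, Slc38a2 and Cebpg. Of the 6 kinases and phosphatase subunits acting on eIF2 alpha, upstream of ATF4, 0 rose (1 at an unadjusted p below 0.05 in limma) and 2 fell: Ppp1r15a, the stress-induced subunit, from 26.6 ± 6.11 to 12.7 ± 2.43 FPKM (−0.999 ± 0.16 SE, adjusted p = 9.48e-05) and Eif2ak2 from 5.30 ± 0.942 to 3.43 ± 0.846 (−0.52, adjusted p = 0.0391). Over all tested genes 18.1% rose and 20.2% fell, and 6 genes are too few to set these counts apart from those shares.

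Enzymes that correct or complete charging, and those that make mature tRNA, showed counts near or below the shares over all genes. Of 12 editing and amidation genes 0 rose (1 at an unadjusted p below 0.05 in limma) and 2 fell, Gatc, a subunit of the mitochondrial glutamyl-tRNA amidotransferase, from 8.68 ± 1.16 to 4.95 ± 1.53 FPKM (−0.73, adjusted p = 0.00569) and Prorsd1 from 49.4 ± 2.73 to 40.0 ± 3.33 (−0.30, adjusted p = 0.00927). Of 23 tested genes of tRNA maturation and export 5 rose, 2 fell and 16 did not pass, with a median of 0.07. Elac2, which trims the 3′ end of precursor tRNA, rose from 7.11 ± 1.14 to 13.5 ± 1.42 FPKM (0.84 ± 0.15 SE, adjusted p = 0.000164), and the tRNA methylase Nsun2 from 39.2 ± 4.94 to 53.2 ± 4.07 (0.44, adjusted p = 0.00144). Ssb, the La protein that binds new RNA polymerase III transcripts, fell from 146 ± 3.30 to 109 ± 9.37 (−0.42, adjusted p = 4.83e-05), and Maf1, a repressor of that polymerase, from 69.7 ± 3.64 to 52.4 ± 5.58 (−0.41, adjusted p = 0.000725).

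**Figure D4:**
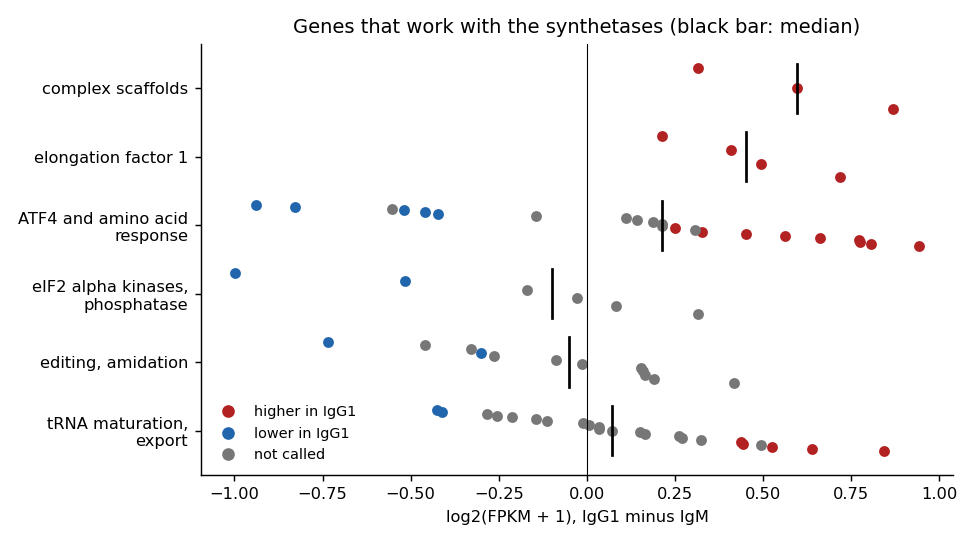
Difference of each tested gene in 6 groups of related genes, IgG1 minus IgM on the log2(FPKM + 1) scale (red, called higher; blue, called lower; grey, not called; black bar, median of the group). All scaffold and elongation factor 1 genes are to the right of 0, and the other groups lie on both sides.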

How the data were processed

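Cells were sorted and RNA extracted and amplified by the submitters with miRNeasy Micro and SMART-Seq mRNA HT LP kits, per the labels' protocols. The authors deposited 1 table of FPKM values per library; the submitters' processing notes name HISAT2 2.1.0, Cufflinks 2.2.1, Cuffdiff and GRCm38, and their settings and annotation were not given in the labels. Of 47719 identifiers, 47219 matched GENCODE M21. Depth was inferred as the fragment number at which low FPKM values of genes with 1 transcript become whole, assuming fragments of 250 bases. Libraries were grouped by title. With limma 3.58.1 (R 4.3.3), log2(FPKM + 1) of genes whose mean reached 1 FPKM was fitted on the group of all 10 libraries (empirical Bayes with trend and robust), two-sided, with Benjamini-Hochberg adjustment over all tested genes. Intervals are 95% intervals of that model. The model was tested on simulated data. Transcripts were compared in 50-base windows and with blastn 2.17.0.

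Members and lists were chosen with earlier results of these data known. Genes given in full were up to 8 called members per direction with the largest difference, the most abundant of each compartment, and pairs called in both compartments; of each related list, up to 4 called genes with the smallest p. No set test was made. Alternatives covered pseudocounts of 0.1 and 5, filters, scalings, model options, a replicate block, trends with length and GC content, and omitted libraries. One promoter sequence and one marker gene are not reported here.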

Additional observations from a re-analysis of the deposited data

Results flagged for a closer look

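Over the 36 genes and both groups, 72 sets of 5 libraries were checked for a single library far from the others (gap to the nearest library over the whole range, critical value 0.71), and 2 exceeded it; chance alone gives about 1 in 20. For Iars2, the fifth IgG1 library was highest at 11.9 FPKM, with the others between 7.43 and 8.63 (gap over range 0.731). For Sars2, the first IgM library was lowest at 8.87 FPKM, with the others between 10.8 and 10.9 (0.955). Neither gene was called.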

How the results depend on the processing

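Over 23 alternatives, 9 of the 16 called genes kept their call in each (Aars, Farsb, Gars, Kars, Mars1, Nars, Qars, Sars, Yars), 7 lost it in some and 0 changed sign; of 19 genes not called, 6 gained a call in some. The cytosolic count of genes higher in IgG1, 13, ran from 11 to 13 with 1 library left out and was 9 without IgG1 replicates 4 and 5. The mitochondrial count of 2 higher was 3 with quantile normalization and 0 with no filter. It was 1 with a mean of at least 5 FPKM, without trend or robust options, with trends on length and GC content removed, and without IgG1 replicates 4 and 5. With 1 library left out it ran from 1 to 2. The mitochondrial count of 0 lower was 1 with a mean of at least 5 FPKM, with a common total without immunoglobulin genes and without trend or robust options, and ran from 0 to 2 with 1 library left out. The cause of these changes was not tested.

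Deviations of same-numbered libraries from their group means had correlations from −0.04 to 0.10 over 5 pairs. Of these, 3 of 5 matched best with their own number. With so few pairs, these values cannot settle whether the numbers pair the libraries. With the replicate block 3701 genes were called in place of 3792, 12 cytosolic genes were higher, and the mitochondrial counts were 1 higher and 1 lower, also with length and GC trends removed.

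Differences that changed sign all belonged to genes not called. Iars2 went to −0.000115 with a pseudocount of 5, −0.0208 without immunoglobulin genes, −0.0158 with array weights, −0.11 without IgG1 replicates 4 and 5, and ran from −0.106 to 0.0936 with 1 library left out. Lars went to 0.00674 with median-ratio scaling, 0.0343 with length and GC trends removed (with or without the block), 0.0366 without IgG1 replicates 4 and 5, and ran from −0.0723 to 0.0369 with 1 library left out. With quantile normalization Pars2 was at 0.0632 and Rars2 at 0.014; Rars2 ran from −0.171 to 0.0853 with 1 library left out. With length and GC trends removed, with or without the block, Wars was at −0.0527 and Sars2 at −0.113. Without IgG1 replicates 4 and 5, Ears2 was at −0.147 and Vars2 at −0.0923, and Ears2 ran from −0.0151 to 0.246 with 1 library left out.

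The median standard error was 0.19 for the mitochondrial genes, most of them low, and 0.08 for the cytosolic genes; the part of depth in this was not tested.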

Other observations

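Within an amino acid, the cytosolic gene was the more abundant one for all pairs but leucine. Averaged over the 10 libraries, the ratio of the cytosolic to the mitochondrial FPKM ran from 1.97 for arginine (Rars, 46.3 against 23.5 for Rars2) to 109.8 for methionine (Mars1, 84.0 against 0.765 for Mars2). Asparagine had a ratio of 25.8 and alanine of 16.5. Leucine stood at 0.152 (Lars, 40.3 against 264.7 for Lars2), with the short stretch of Lars2 that resembles Gm15564 described above. These are levels per transcript length in RNA, and no test was made.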
